A study of Homo sapiens with 17 samples.

Results

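The proteasome subunit genes are the rows of the deposited expression table whose symbol is PSM followed by a letter from A to G and a number. There were 48 of them among 27315 genes, and 46 of the 48 were among the 12484 genes expressed well enough to be tested. The 46 tested genes comprise 7 subunits of the 20S alpha ring, 7 constitutive subunits of the 20S beta ring, 3 immunoproteasome catalytic subunits, 6 ATPases and 11 non-ATPases of the 19S regulator, 3 assembly chaperones of the 19S, 4 assembly chaperones of the 20S, and 5 activators or inhibitors. The other members, the testis-enriched alpha subunit PSMA8 and the thymus-specific beta subunit PSMB11, ran from 5.08 to 5.41 and from 5.12 to 5.34 over the 17 libraries, against a table floor of 5.14, and were not tested.

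The proteasome is the protease that degrades ubiquitin-tagged proteins, HIF alpha proteins among them. Its 20S core is a barrel of stacked alpha and beta rings with the catalytic sites inside, and the 19S regulator caps it, binds ubiquitin chains, removes them and unfolds the substrate with a ring of ATPases. Interferon signalling replaces the catalytic beta subunits with the immunoproteasome forms, and the transcription factor NFE2L1 raises the constitutive genes together when proteasome activity is short.

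RNA was profiled in 786-O, an established line of human clear cell kidney cancer. Its VHL gene is not functional, so HIF alpha proteins are no longer tagged for the proteasome by the VHL ubiquitin ligase, and USP37 is a deubiquitinase. Cells received Cas9 and 1 guide RNA from the lentiviral vector pLenti CRISPR-V2 and were kept under antibiotic selection, and polyadenylated RNA was sequenced from bulk cultures. The USP37 experiment had 3 libraries of guide sg9, 3 of guide sg3 and 2 of its scrambled-guide control, numbered 2 and 3, and the HIF2a experiment (gene symbol EPAS1) had 3 each of guide sg6, guide sg4 and its own scrambled-guide control. No label says that the libraries of a group are separate cultures, so the spread behind each p-value may be technical only.

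Values are the deposited variance-stabilised expression values on a log2-like scale, on which a difference of 1 is close to a doubling for well expressed genes. A gene was called at an adjusted p under 0.05 in limma, with Benjamini-Hochberg adjustment over all 12484 genes of a comparison. Levels of different genes are not compared, because the scale is not per length. The targeted genes followed the labels. EPAS1 averaged 10.34 ± 0.20 with HIF2a sg6 and 9.54 ± 0.14 with sg4, against 11.91 ± 0.13 in its controls (SD, n = 3 each). USP37 averaged 8.13 ± 0.14 with USP37 sg9 and 8.33 ± 0.10 with sg3 (SD, n = 3 each), against 9.24 ± 0.13 in its controls (SD, n = 2). Each target also averaged lower in the other experiment. EPAS1 was at 11.37 ± 0.21 with USP37 sg9 and 11.47 ± 0.15 with sg3, against 12.14 ± 0.04 in the USP37 controls. USP37 was at 8.49 ± 0.31 with HIF2a sg6 and 8.55 ± 0.13 with sg4, against 8.96 ± 0.24 in the HIF2a controls.

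Some libraries stood apart. USP37 control library 3 held the general leukocyte transcript PTPRC and the T-cell transcripts CD3E and CD2. They were at 6.68, 6.78 and 6.14, while the other 16 libraries ran from 4.99 to 5.53, from 4.94 to 5.25 and from 5.02 to 5.21. The leukocyte marker LAPTM5 did not single out that library: it was at 8.57 there, 8.53 in USP37 control library 2 and 6.53 to 7.81 in the rest. The summed level above the floor of 10 leukocyte markers, 2 of which were tested, was 9.4 in that library and 2.85 to 5.63 in the others. PSMB8, PSMB9 and PSMB10, which T cells express highly, were at 10.19, 8.72 and 8.66 in it, against 10.23, 8.48 and 8.40 in USP37 control library 2. In the HIF2a experiment, the median proteasome gene was 0.24 below the control mean in sg6 library 3, 0.16 above it in sg6 library 2 and 0.14 below it in control library 2. The 10 renal carcinoma markers were all tested, with sums above the floor of 71.2 to 74.5 over all libraries.

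With the USP37 guides, most of the proteasome genes were higher. In the mean of both guides, 35 of the 46 tested genes were higher and 1 was lower than in the scrambled controls, against 22.4% higher and 21.9% lower among all tested genes (limma, adjusted p under 0.05). The median difference was 0.45, against 0.01 over all tested genes, and 42 of the 46 differences were positive. All 6 libraries of both guides lay above both controls for 31 members and below both for PSME1 alone, against 20% and 21.2% of all tested genes. Without control library 3, the one with T-cell transcripts, 30 members were higher and the other 16 were not called, against 15.2% of all tested genes higher (limma, adjusted p under 0.05), and without control library 2 the counts were 24 and 1, against 14.7% and 14.8%. With 1 control library left, that library was assumed to vary like the other groups.

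**Figure D1:**
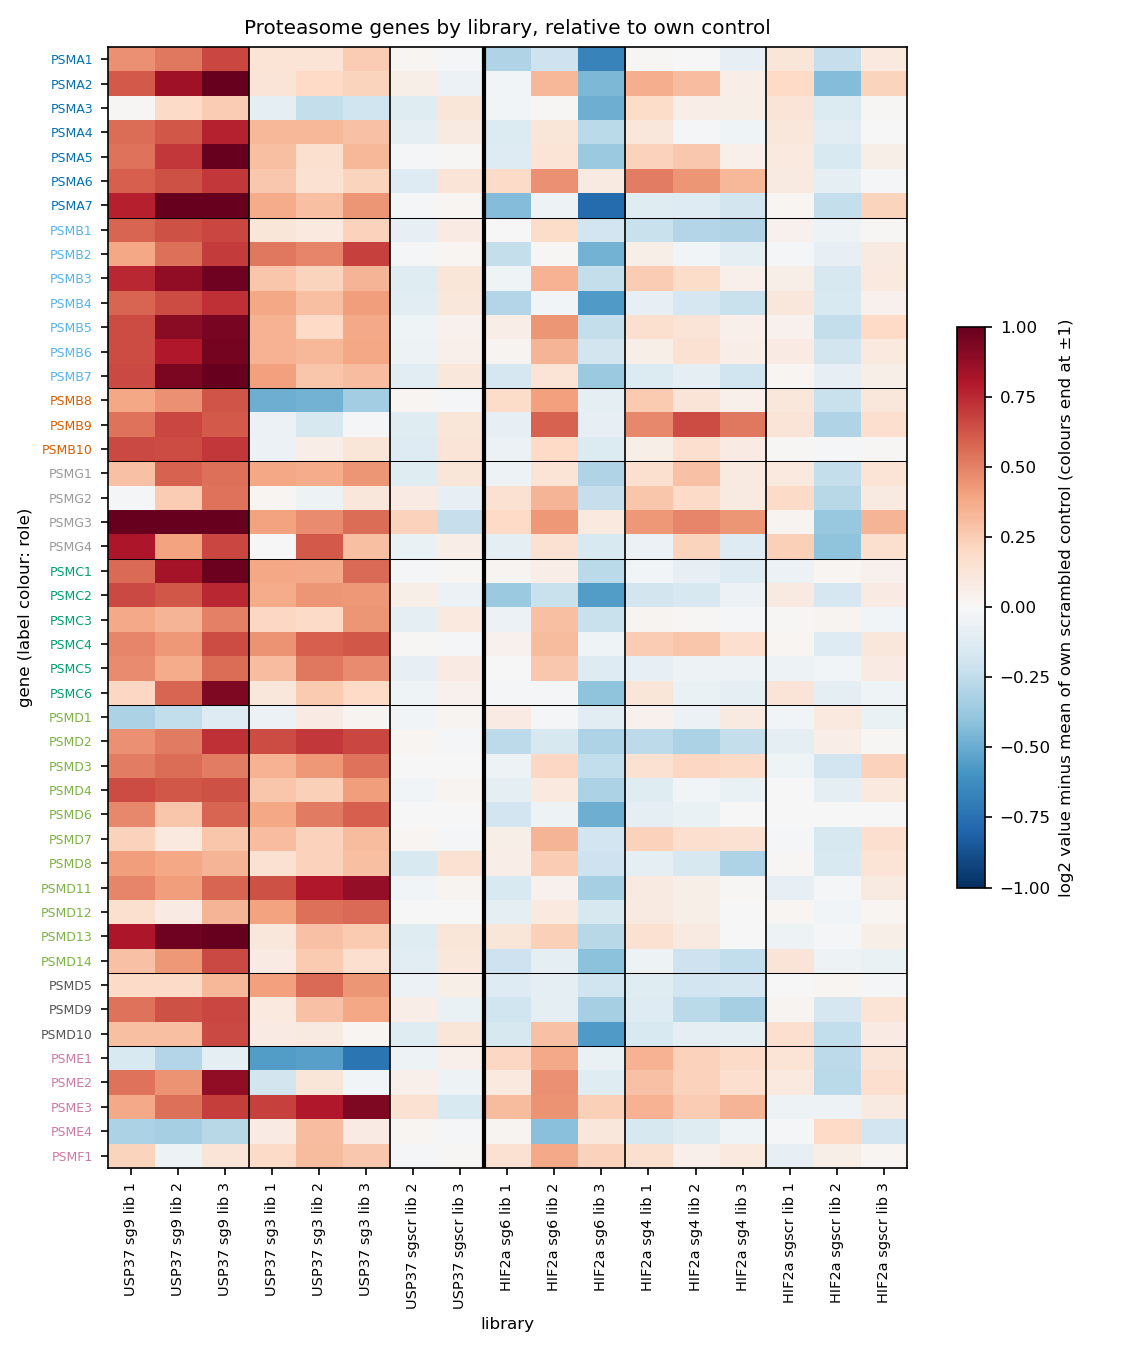
Each row is 1 of the 46 tested proteasome genes and each column 1 library; the colour is the deposited log2 value minus the mean of the same experiment's scrambled controls (colours end at ±1), and horizontal lines part, from the top, the alpha ring, the constitutive beta ring, the immunoproteasome subunits, the 20S chaperones, the 19S ATPases, the 19S non-ATPases, the 19S chaperones and the activators or inhibitors. Medians over the 46 genes ran from 0.49 to 0.67 in the USP37 sg9 libraries and from 0.28 to 0.32 in the USP37 sg3 libraries, while HIF2a libraries lay on both sides of 0.

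Members of the 20S core, the 19S regulator and the assembly chaperones were among the genes that were higher. All 7 constitutive beta subunits were higher in the mean of the USP37 guides, by 0.39 to 0.62, and 6 of 7 alpha subunits were higher, with a median over the 7 of 0.48. The alpha subunit outside the call was PSMA3, at -0.02 (SE 0.12). All 6 ATPases, which unfold substrates at the mouth of the core, were higher by 0.35 to 0.62, led by PSMC1. Of the 11 non-ATPase subunits 9 were higher, with a median over the 11 of 0.47. Among them PSMD14, the deubiquitinase that strips the ubiquitin chain from the substrate, was higher by 0.31 and the ubiquitin receptor PSMD4 by 0.47. The scaffold PSMD1, at -0.11, and the lid subunit PSMD7, at 0.25, did not pass the test. The assembly chaperones gave 3 higher of 4 for the 20S and 2 higher of 3 for the 19S, while PSMG2 (0.14) and PSMD10 (0.24) were not called. PSMA3, PSMG2, PSMD1, PSMD4, PSMD7 and PSMD14 are named here after their values were seen. Without USP37 control library 2, limma no longer called PSMA1, PSMA2, PSMA6, PSMB1, PSMC3, PSMC6, PSMD8, PSMD14, PSMG1 and PSMG4, and without control library 3 it no longer called PSMA1, PSMA2, PSMC6, PSMD9 and PSMG4. With the replicate number as a block the calls of PSMD8 (limma adjusted p = 0.0556) and PSMG4 (limma adjusted p = 0.0532) were lost.

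**Figure D2:**
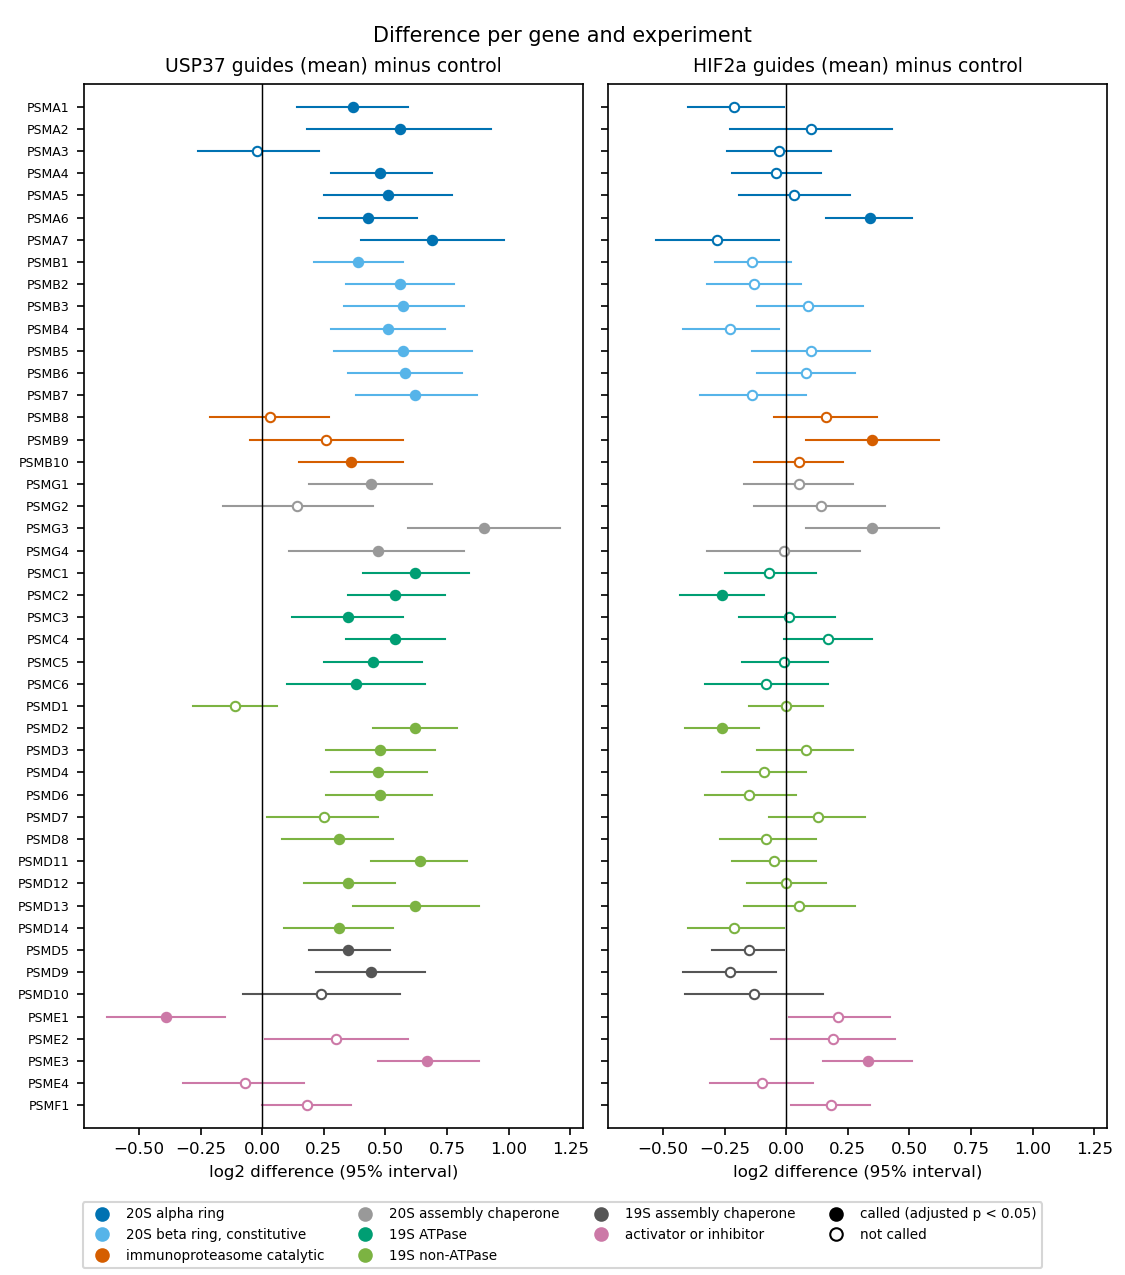
The log2 difference of each tested proteasome gene, with its 95% interval from limma, is shown for the mean of the USP37 guides minus their control (left) and for the mean of the HIF2a guides minus theirs (right); filled points are called at an adjusted p under 0.05 and colours give the role. On the left 35 genes are called higher and 1 lower, on the right 4 higher and 2 lower.

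PSMG3, a chaperone that helps assemble the alpha ring, had the largest difference against both controls, though not without control library 3. In that setting PSMD13, PSMB7, PSMA7 and PSMB3 stood above PSMG3. It read 9.47, 9.73 and 9.76 in the sg9 libraries and 8.72, 8.79 and 8.89 in the sg3 libraries, against 8.55 and 8.10 in the controls. Every guide library lay above both controls, which stood further apart than the libraries of either guide. The difference for the mean of both guides was 0.90 (SE 0.15, limma adjusted p = 6.38e-05). Its antisense neighbour PSMG3-AS1 differed by 0.28 (adjusted p = 0.118, limma), and the library kit does not mark strand, so reads of the pair where they overlap cannot be told apart.

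PSMA7 is an alpha-ring subunit. It read 12.28, 12.56 and 12.70 with sg9 and 11.87, 11.80 and 11.93 with sg3, against 11.48 and 11.52 in the controls. The 3 groups did not overlap and sg9 was highest. The difference for both guides was 0.69 (SE 0.14, limma adjusted p = 0.000473). PSMB7, the beta subunit with trypsin-like activity, read 11.64, 11.93 and 12.13 with sg9 and 11.39, 11.27 and 11.30 with sg3, against 10.87 and 11.10 in the controls. The same order held, with a difference of 0.62 (SE 0.12, limma adjusted p = 0.000287).

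Of the lid subunits PSMD13 and PSMD11, both non-ATPase members of the 19S, the first was called with sg9 alone and the other with both guides. PSMD13 read 11.31, 11.48 and 11.80 with sg9 and 10.61, 10.80 and 10.77 with sg3, against 10.38 and 10.62 in the controls. The sg9 libraries were clear of the rest, while the lowest sg3 library lay between the controls. Its difference was 1.03 with sg9 (limma adjusted p = 6.88e-06) and 0.22 with sg3 (limma adjusted p = 0.223), and for both guides it was 0.62 (SE 0.12, limma adjusted p = 0.000407). PSMD11 had the opposite order of guides, with 11.32, 11.25 and 11.41 in sg9, 11.47, 11.63 and 11.71 in sg3, and 10.80 and 10.86 in the controls. All its guide libraries lay above the controls, and the difference was 0.64 (SE 0.09, limma adjusted p = 1.96e-05). Without control library 3 the differences for both guides were 0.67 for PSMG3, 0.71 for PSMA7, 0.74 for PSMB7, 0.75 for PSMD13 and 0.67 for PSMD11, each still called by limma.

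The activators that can replace the 19S cap did not move as a group. PSME3, the nuclear activator, was higher, with 11.12, 11.29 and 11.43 in sg9 and 11.42, 11.54 and 11.67 in sg3, against 10.89 and 10.59 in the controls. All guide libraries were above both controls, and the difference was 0.67 (SE 0.10, limma adjusted p = 1.99e-05). PSME1, a subunit of the interferon-induced activator, was the member that was lower, with 11.50, 11.35 and 11.55 in sg9 and 11.08, 11.11 and 10.92 in sg3, against 11.60 and 11.69 in the controls. Every guide library lay below both controls, the sg3 libraries most, and the difference was -0.39 (SE 0.11, limma adjusted p = 0.00861). Without USP37 control library 3 it was -0.34 (limma adjusted p = 0.101). PSME2, its partner in the same ring, was at 0.30 (SE 0.14), the single-chain activator PSME4 at -0.07 (SE 0.12) and the inhibitor PSMF1 at 0.18 (SE 0.09), none of them called.

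Because most constitutive genes were higher with the USP37 guides, the members' promoters were searched for 2 short motifs, in RefSeq windows of build GRCh38.p14 from 250 bases before to 50 bases after each gene's start. A window was listed for 42 of the 48 members, and PSMA7, PSMB1, PSMB6, PSMB7, PSMD4 and PSMG3 had none. The core of the antioxidant response element, TGACNNNGC on either strand, the kind of site that NFE2L1 and its relatives bind, was in 15 of the 42 windows (35.7%), against 16.1% of 27305 genes and 17.9% of 15843 protein-coding genes. Its first letters are shared with AP-1 and Maf sites. It was in 9 of the 29 windows of genes called higher in the mean of the USP37 guides and in 6 of the 11 windows of the other tested members. The interferon element, GAAA, any 2 bases and GAAA on either strand, is a pattern that IRF factors also bind. It was in 7 windows (16.7%), against 4.38% of all genes and 4.16% of protein-coding genes. The 7 were those of PSMA4, PSMB4, PSMB8, PSMB10, PSME1, PSME2 and PSMG4, while the window of PSMB9 had no match. The element was in 4 of the 29 windows of raised genes and in 3 of the 11 others. A match is a description of letters and not a bound site.

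The following stretches show the response element core, in capitals, upstream of the start in genes on either side of the result: 4 raised genes and PSME1, which was lower. Each is 100 bases long and reads 5′ to 3′ on the gene's strand.
PSMB3 (beta ring, chr17:38752592-38752691, plus strand, element 104 bases before the start, USP37 difference 0.57): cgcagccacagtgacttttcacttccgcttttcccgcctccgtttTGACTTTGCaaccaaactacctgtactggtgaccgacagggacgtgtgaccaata
PSMD3 (19S non-ATPase, chr17:39980707-39980806, plus strand, element 37 bases before the start, USP37 difference 0.48): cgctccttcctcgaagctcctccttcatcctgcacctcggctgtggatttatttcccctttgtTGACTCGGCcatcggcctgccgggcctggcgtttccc
PSMD9 (19S chaperone, chr12:121888596-121888695, plus strand, element 149 bases before the start and on the opposite strand, USP37 difference 0.44): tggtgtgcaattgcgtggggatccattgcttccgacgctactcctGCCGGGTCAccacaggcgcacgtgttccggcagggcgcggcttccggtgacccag
PSMD12 (19S non-ATPase, chr17:67366688-67366787, minus strand, element 165 bases before the start, USP37 difference 0.35): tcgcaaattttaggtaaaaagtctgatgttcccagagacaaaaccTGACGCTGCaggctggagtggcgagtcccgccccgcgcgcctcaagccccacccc
PSME1 (activator, chr14:24136063-24136162, plus strand, element 86 bases before the start, USP37 difference -0.39): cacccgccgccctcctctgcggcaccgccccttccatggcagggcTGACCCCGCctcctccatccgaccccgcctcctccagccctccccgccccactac

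The 3 catalytic subunits of the constitutive core and their 3 interferon-induced counterparts behaved differently between the guides. PSMB5, the chymotrypsin-like subunit, read 11.55, 11.81 and 11.86 with USP37 sg9 and 11.25, 11.10 and 11.29 with sg3, against 10.86 and 10.95 in the controls. PSMB6, the caspase-like subunit, read 11.26, 11.40 and 11.56 with sg9 and 10.95, 10.94 and 10.99 with sg3, against 10.56 and 10.65 in the controls. Both stood in the order sg9, sg3, control with no overlap, with differences for both guides of 0.57 (SE 0.13) and 0.58 (SE 0.11). PSMB8, which replaces PSMB5 in the immunoproteasome, split instead: it read 10.61, 10.67 and 10.84 with sg9 and 9.72, 9.74 and 9.86 with sg3, against 10.23 and 10.19 in the controls. All sg9 libraries were above the controls and all sg3 libraries below them. The differences were 0.49 with sg9 (SE 0.13, limma adjusted p = 0.00389) and -0.43 with sg3 (SE 0.13, limma adjusted p = 0.0129), so PSMB8 was the member called in opposite directions by the guides. Without control library 2 the sg3 difference was -0.42 (limma adjusted p = 0.0828), and without control library 3 it was -0.45 (limma adjusted p = 0.0586).

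PSMB9 and PSMB10, the immunoproteasome forms of PSMB6 and PSMB7, were called higher with sg9 (0.61 and 0.67) and not called with sg3 (-0.08 and 0.04). PSMB9 read 9.14, 9.27 and 9.21 with sg9 and 8.54, 8.44 and 8.58 with sg3, against 8.48 and 8.72 in the controls. PSMB10 read 9.19, 9.18 and 9.24 with sg9 and 8.47, 8.60 and 8.66 with sg3, against 8.40 and 8.66 in the controls. For both, sg9 lay above all other libraries of the experiment and sg3 overlapped the controls. Of the 3 immunoproteasome subunits PSMB10 was called in the mean of both guides, at 0.36 (SE 0.10, limma adjusted p = 0.00685), and at 0.23 without control library 2 (limma adjusted p = 0.197). Without that library the sg9 call of PSMB9 was lost too (limma adjusted p = 0.0823). The difference between the guides, sg9 minus sg3, was 0.93 for PSMB8 (SE 0.12, limma adjusted p = 2.18e-05), 0.69 for PSMB9 (SE 0.15, limma adjusted p = 0.00194) and 0.63 for PSMB10 (SE 0.10, limma adjusted p = 0.000172). None of these differences uses the control values, while their SEs and p-values draw on the spread of all libraries, controls included. PSMB8 and PSMB9 overlap on opposite strands, as do PSMB8 and its antisense gene PSMB8-AS1, and PSMB9 also overlaps TAP1. PSMB8-AS1 differed by 0.09 between the guides (adjusted p = 0.625, limma).

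**Figure D3:**
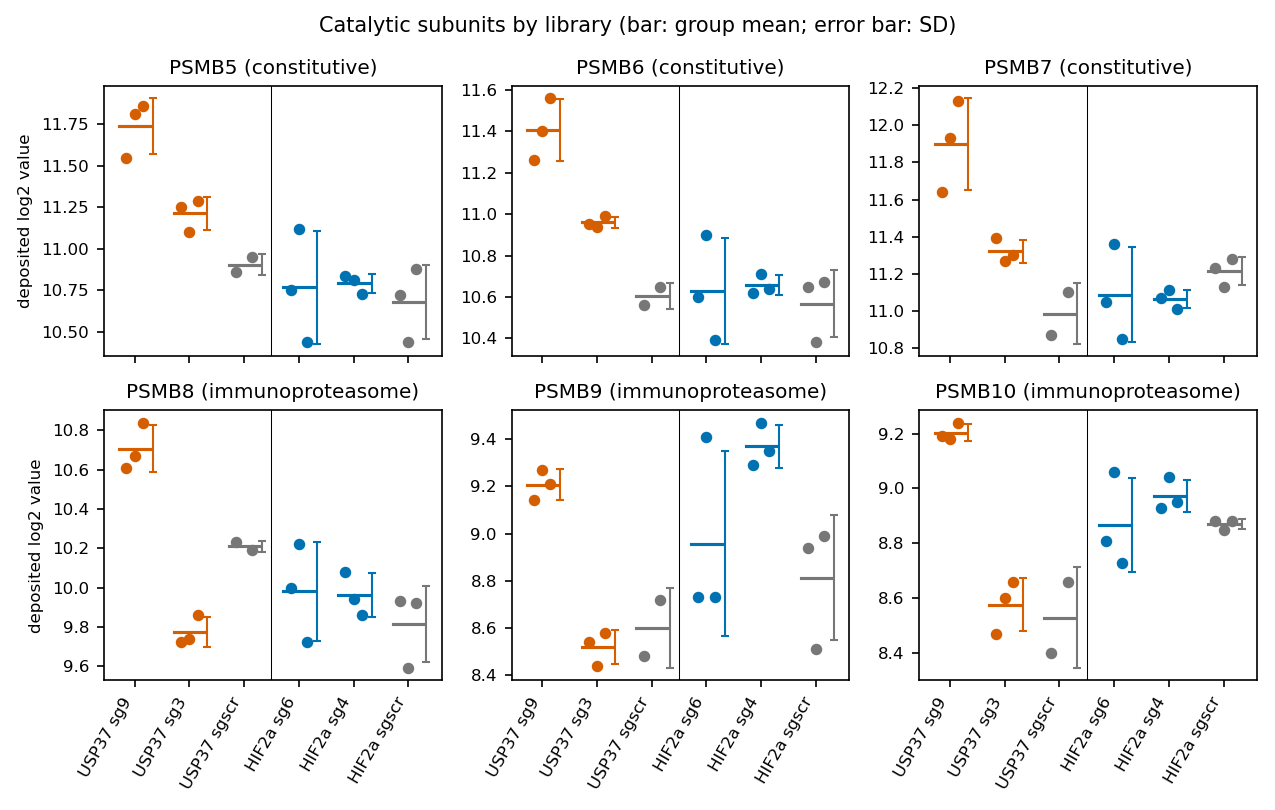
Deposited log2 value of the 3 constitutive catalytic subunits (top) and of the immunoproteasome subunit that replaces each (PSMB8 for PSMB5, PSMB9 for PSMB6, PSMB10 for PSMB7; bottom), by group; points are libraries, bars the group mean and error bars the SD (n = 3, n = 2 for the USP37 control), and each panel has its own axis. The constitutive subunits stand in the order sg9, sg3, control in the USP37 experiment, while PSMB8 averages 10.70 with sg9 and 9.78 with sg3, either side of 10.21 in the controls.

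Taken by single guide, sg9 gave the larger rise. With sg9, 37 members were higher and PSMD1 was lower (-0.23), with a median of 0.56, against 24.6% and 23.2% of all tested genes (limma, adjusted p under 0.05). With sg3, 19 were higher and 2, PSMB8 and PSME1, were lower, with a median of 0.29, against 16.8% and 18.4%. Of these, 17 members were higher with both guides. The share of all tested genes higher with both was not computed, so this overlap has no background to be read against. The 2 guides share their control libraries, so these 2 sets are not independent. Without control library 3, 37 members were higher with sg9 and 14 with sg3, against 19.2% and 11% of all tested genes, and without control library 2 the counts were 30 and 12, against 18% and 11.2%. The PSMD1 call was lost in 9 of the 17 fits that left out 1 library, both USP37 controls among them (limma adjusted p up to 0.195).

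Tested directly, sg9 exceeded sg3 in 25 members and was below it in 5, against 16.6% and 14.2% of all tested genes (limma, adjusted p under 0.05), with a median difference of 0.33. The core set the pattern: all 7 alpha subunits were higher with sg9 than with sg3, by 0.33 to 0.74, as were 5 of 7 constitutive beta subunits and all 3 immunoproteasome subunits. The 11 non-ATPases gave 3 higher and 3 lower, with a median of -0.06. The members lower with sg9 than with sg3 were PSMD1 (-0.25), PSMD11 (-0.28) and PSMD12 (-0.31) of the 19S, the chaperone PSMD5 (-0.23) and PSME4 (-0.47). These 5 are named after their values were seen. Leaving out 1 library ended the call of PSMD1 and PSMD11 (sg9 library 1 or 2, sg3 library 2 or 3), of PSMD5 (sg9 library 1 or 2, sg3 library 2) and of PSMD12 (sg9 library 2), at limma adjusted p up to 0.107, 0.12, 0.144 and 0.0603. Of the higher members, PSMA3 lost its call without sg9 library 2 or 3 or sg3 library 2 or 3 (limma adjusted p up to 0.132), and without sg9 library 3 so did PSMA1 and PSMA4. PSMC2 lost its call whichever single sg9 or sg3 library was left out. PSMC6 and PSMD14 lost theirs without any single one of these libraries except sg9 library 1. The call of PSMC1 ended without sg3 library 1 or 2 or sg9 library 3. That of PSMD9 ended without sg3 library 1 or sg9 library 3, and that of PSMD4 without sg3 library 2. With the replicate number as a block PSMA3, PSMC2, PSMC6 and PSMD14, and of the lower members PSMD1 and PSMD5, were not called, at limma adjusted p from 0.051 to 0.067.

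Transcript length moved with the difference between the guides. Over the 46 members, the median length of a gene's coding transcripts had a Spearman correlation of -0.51 with the sg9 minus sg3 difference, and over 12059 tested genes of known length it was -0.37, where all points come from the same 6 libraries. The 38 members with transcripts under 1500 bases had a median of 0.34 and the 8 longer ones -0.06, and over all tested genes the medians of short and long genes were 0.13 and -0.06. With length and GC content taken out of the values, an alternative chosen after seeing the data, 20 members were higher and 5 lower, against 13.6% and 16% of all genes tested there, with a median of 0.19. The call was lost for PSMA3, PSMA4, PSMC2, PSMD4 and PSMD14 among the higher members and for PSMD1 and PSMD12 among the lower ones, while PSME3 and PSMF1 were called in addition. PSMB8 was then at 0.80 (limma adjusted p = 1.12e-05). Against control, the Spearman correlation with length over the members was -0.32 for sg9, 0.28 for sg3 and 0.01 for the mean of both guides. In that mean the short members had a median of 0.46 and the long ones 0.41, and after the same adjustment 34 were higher and 1 lower, against 24.9% and 22.2% of all genes tested there.

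**Figure D4:**
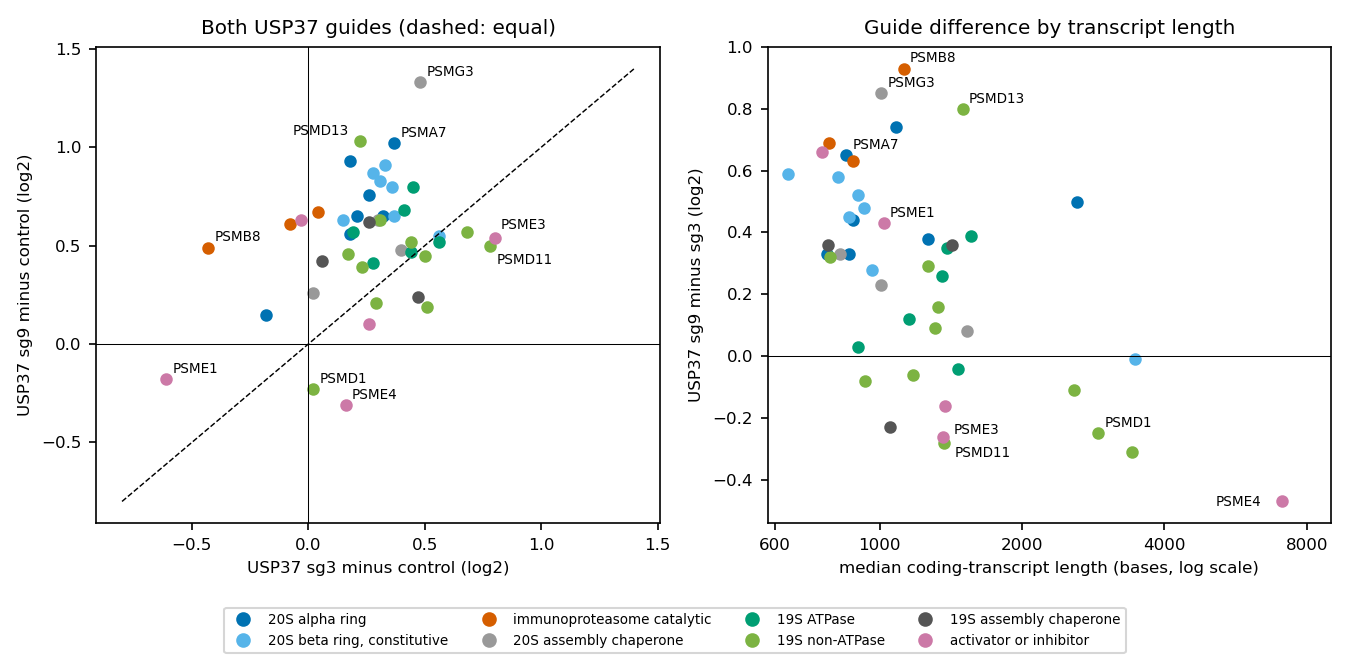
Left, the log2 difference from control of each tested proteasome gene with USP37 sg9 (vertical) and sg3 (horizontal), with a dashed line where both are equal; right, the sg9 minus sg3 difference against the median length of the gene's coding transcripts on a log axis. Most points lie above the dashed line, PSMB8 lies at 0.49 and -0.43, and the longest transcript, that of PSME4, has the lowest guide difference, -0.47.

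In the HIF2a experiment the proteasome genes did not move together. In the mean of both guides 4 members were higher and 2 lower, against 16.1% and 14.5% of all tested genes (limma, adjusted p under 0.05), so both shares of members were below the background. The median was -0.00 and 22 of 46 differences were positive. HIF2a sg6 gave 2 higher (PSME3 and PSMF1) and 5 lower (PSMA1, PSMA7, PSMB4, PSMC2 and PSMD2), against 15.2% and 13.8% of all tested genes. HIF2a sg4 gave 4 higher (PSMA6, PSMB9, PSME3 and PSMG3) and 2 lower (PSMB1 and PSMD2), against 13.2% and 12.1%. With the replicate number as a block the sg6 calls of PSMB4 and PSMF1 were lost (limma adjusted p = 0.0707 and 0.0587), as was the sg4 call of PSMB1 (limma adjusted p = 0.0513), and PSMB4 was lost in 14 of the 17 fits that left out 1 library. Between the guides, sg6 minus sg4, 0 members were higher by limma and 1, the alpha subunit PSMA1, was lower (-0.37, SE 0.11, limma adjusted p = 0.0362), against 4.86% and 4.36%, with 7 members at an unadjusted p under 0.05. The PSMA1 call was lost with the replicate block (limma adjusted p = 0.0628), with each experiment fitted alone, with no filter, with array weights, with no mean-variance trend and without sg6 library 3 or any single sg4 library (limma adjusted p up to 0.184). The differences for the mean of both guides ran from -0.28 to 0.35. All libraries of both HIF2a guides lay above all controls for 1 member, PSME3, and below them for 2, PSMD2 and PSMD5, against 13.1% and 12.1% of all tested genes.

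The members that were called in the HIF2a experiment came from different layers of the particle. PSMA6, an alpha subunit, read 11.05, 11.32 and 10.95 with sg6 and 11.37, 11.30 and 11.19 with sg4, against 10.95, 10.77 and 10.85 in the controls. Only the lowest sg6 library met the highest control, and the difference for both guides was 0.34 (SE 0.08, limma adjusted p = 0.00399). PSME3 read 11.26, 11.39 and 11.18 with sg6 and 11.30, 11.19 and 11.29 with sg4, against 10.90, 10.90 and 11.03 in the controls. The groups did not overlap, and the difference was 0.33 (SE 0.09, limma adjusted p = 0.00601).

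PSMD2, a scaffold of the 19S and a docking site for shuttle factors, was lower. It read 12.68, 12.78 and 12.64 with sg6 and 12.68, 12.63 and 12.70 with sg4, against 12.85, 13.02 and 12.96 in the controls. All guide libraries lay below all controls, with a difference of -0.26 (SE 0.07, limma adjusted p = 0.00825). PSMC2, an ATPase, read 10.68, 10.83 and 10.48 with sg6 and 10.87, 10.89 and 10.99 with sg4, against 11.14, 10.88 and 11.13 in the controls. In this gene 1 control library lay among the sg4 values, and the difference was -0.26 (SE 0.08, limma adjusted p = 0.0192). Its call was lost without control library 1 or control library 3 (limma adjusted p up to 0.116).

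PSMB9 read 8.73, 9.41 and 8.73 with HIF2a sg6 and 9.29, 9.47 and 9.35 with sg4, against 8.94, 8.51 and 8.99 in the controls. The sg4 libraries were above the controls and the sg6 libraries on both sides of them, and the difference for both guides was 0.35 (SE 0.13, limma adjusted p = 0.045). PSMG3 read 8.52, 8.76 and 8.43 with sg6 and 8.76, 8.81 and 8.76 with sg4, against 8.36, 7.95 and 8.67 in the controls. The sg4 libraries were above the controls and the sg6 libraries overlapped them, and the difference was 0.35 (SE 0.13, limma adjusted p = 0.0443). The calls of PSMB9 and PSMG3 were lost in 12 and 10 of the 17 fits that left out 1 library. With the median of each chromosome taken out of each library, PSMD2, on chromosome 3, was at -0.03 (limma adjusted p = 0.834), PSME3 at 0.19 (0.0964), PSMG3 at 0.33 (0.0652) and PSMA6 at 0.22 (0.0516).

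The constitutive and immunoproteasome catalytic subunits other than PSMB9 were not called with the HIF2a guides. PSMB5 read 10.75, 11.12 and 10.44 with sg6 and 10.84, 10.81 and 10.73 with sg4, against 10.72, 10.44 and 10.88 in the controls. PSMB6 read 10.60, 10.90 and 10.39 with sg6 and 10.62, 10.71 and 10.64 with sg4, against 10.65, 10.38 and 10.67 in the controls. Both overlapped fully with their controls, at 0.10 (SE 0.12) and 0.08 (SE 0.10). PSMB7 read 11.05, 11.36 and 10.85 with sg6 and 11.07, 11.11 and 11.01 with sg4, against 11.23, 11.13 and 11.28 in the controls, a difference of -0.14 (SE 0.10). PSMB8 read 10.00, 10.22 and 9.72 with sg6 and 10.08, 9.94 and 9.86 with sg4, against 9.93, 9.59 and 9.92 in the controls, a difference of 0.16 (SE 0.10). PSMB10 read 8.81, 9.06 and 8.73 with sg6 and 8.93, 9.04 and 8.95 with sg4, against 8.88, 8.85 and 8.88 in the controls, a difference of 0.05 (SE 0.09). In each of these subunits, sg6 library 2 was the highest and library 3 the lowest of the sg6 libraries.

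The difference between the experiments was itself tested. The USP37 effect exceeded the HIF2a effect in 29 members and was below it in 1, against 19.6% and 19% of all tested genes (limma, adjusted p under 0.05), with a median of 0.47. PSMD2 had the lowest adjusted p, with a USP37 effect of 0.62 and a HIF2a effect of -0.26, a difference of 0.88 (SE 0.11, limma adjusted p = 2.27e-06). PSMC2 likewise was higher with the USP37 guides (0.54, SE 0.09) and lower with the HIF2a guides, a difference of 0.80 (SE 0.12, limma adjusted p = 3.71e-05). PSMA7 differed most in size, at 0.97 (SE 0.19, limma adjusted p = 0.000333). The member below was PSME1, at -0.61 (SE 0.15, limma adjusted p = 0.00345). All 7 constitutive beta subunits and 5 of 6 ATPases passed, and none of the 3 immunoproteasome subunits did. Without USP37 control library 2 the counts were 17 and 1, against 14.2% and 14.8% of all tested genes, and PSMB3, PSMB5, PSMB6, PSMC4, PSMC5 and PSMC6 lost their calls. Without control library 3 they were 22 and 1, against 14.7% and 14.8%, and PSMB5, PSMC4 and PSMC6 lost theirs. With the replicate number as a block PSMB5 (limma adjusted p = 0.0574) and PSMC6 (limma adjusted p = 0.071) were not called. Both were also not called with no filter and with no mean-variance trend. Without HIF2a control library 1 the counts were 22 and 1, against 17.2% and 16.9% of all tested genes, and PSMB5, PSMC4 and PSMC6 lost their calls. Without HIF2a control library 3, PSMB3, PSMB5, PSMC4 and PSMC6 lost theirs.

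The members called in both experiments were PSMA6, PSME3 and PSMG3, higher in both, and PSMC2 and PSMD2, in opposite directions. The share of all tested genes called in both was not computed, so the size of this overlap is not read as a result. With chromosome medians taken out, the HIF2a calls of PSMA6, PSMD2, PSME3 and PSMG3 were lost. With each experiment fitted alone, those of PSMC2 and PSMG3 were lost. PSMA6, at 0.43 with the USP37 guides and 0.34 with the HIF2a guides, had a difference between the effects of 0.10 (SE 0.13, limma adjusted p = 0.59), which does not show that the effects are alike. Without USP37 control library 2 its USP37 call was lost (limma adjusted p = 0.0753). PSMA6 read 12.34, 12.38 and 12.45 with USP37 sg9 and 12.01, 11.89 and 11.96 with sg3, against 11.61 and 11.87 in the controls. PSMC2 read 11.89, 11.85 and 11.98 with sg9 and 11.60, 11.67 and 11.66 with sg3, against 11.29 and 11.17. PSMD2 read 12.97, 13.04 and 13.24 with sg9 and 13.16, 13.23 and 13.18 with sg3, against 12.53 and 12.50. In each of these genes every USP37 guide library lay above both USP37 controls.

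The scrambled controls of the experiments differed from each other, and control and experiment cannot be told apart there. In the USP37 controls 10 members were higher, led by PSMA6 (0.88) and PSME1 (0.85), and 4 were lower (PSMB10, PSMC5, PSMD1 and PSMD2) than in the HIF2a controls, against 20.1% and 20.4% of all tested genes (limma, adjusted p under 0.05), with a median of 0.04. Set against the HIF2a controls in place of their own, an alternative chosen after seeing the data, the USP37 guides had 39 members higher and 2 lower. The share of all tested genes called in that setting was not computed, so these counts have no background to be read against. PSME1 was then at 0.46 (SE 0.10, limma adjusted p = 0.000449), the opposite direction to its difference from the USP37 controls. PSMA3 was then at 0.77 (SE 0.10, limma adjusted p = 1.56e-06).

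Genes that work with the proteasome but carry other names were read from a list of 27, of which 24 were tested. With the USP37 guides 6 were higher and the other 18 were not called, with a median over the list of 0.14. POMP, the maturation factor that assembles the beta ring, was higher by 0.74 (SE 0.14, limma adjusted p = 0.000205), the small lid subunit SEM1 by 0.64 (SE 0.19, limma adjusted p = 0.0108), the ubiquitin receptor ADRM1 by 0.49 (SE 0.10, limma adjusted p = 0.000535) and UFD1, a cofactor of the segregase that feeds substrates to the proteasome, by 0.43 (SE 0.10, limma adjusted p = 0.00112). The share higher, 25%, was near the 22.4% of all tested genes. The share lower was 0%, against 21.9% of all tested genes, and 18 of the 24 differences were positive. SEM1 was called with sg9 (1.21) and not with sg3 (0.07), and POMP likewise (1.17 and 0.31). With the HIF2a guides 2 of the 24 were higher and 7 lower, shares of 8.33% and 29.2%, against 16.1% and 14.5% of all tested genes. ZFAND5, a stimulator of the proteasome, was higher by 0.50 (SE 0.08), while NGLY1, the glycanase that processes NFE2L1, was at -0.44 (SE 0.08) and POMP at -0.36 (SE 0.12), each called by limma. NFE2L1 itself was higher in the mean of both sets of guides, by 0.33 (SE 0.10, limma adjusted p = 0.00929) with USP37 and 0.30 (SE 0.08, limma adjusted p = 0.00912) with HIF2a. By single guide it was called with USP37 sg3 (0.53) and HIF2a sg6 (0.36) and not with USP37 sg9 (0.13) or HIF2a sg4 (0.25).

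Class I antigen processing, which uses peptides cut by the proteasome, was read from 15 genes, all tested. With the USP37 guides 2 were higher and 3 lower, shares of 13.3% and 20%, both below the 22.4% and 21.9% of all tested genes. The peptide transporter subunit TAP2 was higher by 0.89 (SE 0.13), the loading chaperone TAPBP was at -0.74 (SE 0.14) and TAPBPL at -0.39 (SE 0.14), each called by limma. With the HIF2a guides 4 (26.7%) were higher, against 16.1% of all tested genes, and the other 11 were not called; the higher ones included HLA-E (0.45, SE 0.07), TAP1 (0.40, SE 0.09) and HLA-C (0.38, SE 0.12), each called by limma. Fewer cells of a type and less RNA per cell cannot be told apart in these bulk samples.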

How the data were processed

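Bulk RNA of 786-O cells in 17 libraries was analysed from the values that the authors deposited: log2-like variance-stabilised expression of 27315 genes, corrected for batch by the authors, per the deposited table's own name. Tools named in the submitters' processing notes are STAR 2.5.2b, Salmon, cutadapt and DESeq2, with the build hg19; the roles, annotation and batch variable were not given in the sources. For every gene the means over equally numbered libraries are equal to within 6.4e-14, so a replicate-number term had been removed, and the p-values tend to be too small. Values were shifted as well: CD3E read 6.78 in USP37 control library 3, 4.94 in every other library 3 and 5.25 in libraries 1 and 2. The USP37 control has no library 1, so differences may be shifted too. The values do not hold counts, so the depth is unknown; 8023 genes have 1 value throughout.

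Genes with a mean at least 1 above the floor of 5.14, the 1st percentile of gene means, were tested. Groups were taken from the treatment label. The 6 group means were fitted in 1 model with limma 3.58.1 (R 4.3.3; moderated, with a variance trend over the mean and 11 residual degrees of freedom), and the 10 contrasts were adjusted over all 12484 tested genes. The script was checked on simulated data. Roles, length and GC content come from hand-written lists and GENCODE v29, and promoters from RefSeq. No library duplicated another: members of a group differed by a median of 0.0986 to 0.239. The members and lists were chosen with earlier results of these data known, and a few genes of the lists are not reported here. Genes shown with every library value are the 6 called members of largest difference in each experiment and the catalytic subunits, and up to 3 members per role are named besides. Alternatives were a replicate block, separate fits, filters, centring, weights, chromosome medians and libraries left out, with 2 more added after seeing the data. In 1 of the alternatives 3 libraries were left out together, picked from these same values because they lay far from their groups.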

Additional observations from a re-analysis of the deposited data

Results flagged for a closer look

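The effect of the USP37 guides and the effect of the HIF2a guides on the proteasome genes differed by a direct test of the difference. In 29 of 46 tested members the USP37 effect was above the HIF2a effect and in 1, PSME1, it was below, against 19.6% and 19% of all tested genes (limma, adjusted p under 0.05). Without USP37 control library 2 the counts were 17 and 1, against 14.2% and 14.8%. The guides of the USP37 experiment also differed from each other at PSMB8, where sg9 was above sg3 by 0.93 (SE 0.12, limma adjusted p = 2.18e-05), with sg9 above and sg3 below their own controls in every library. The place of sg3 depends on the control set: it averaged 9.78, against 10.21 in the USP37 controls and 9.81 in the HIF2a controls.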

How the results depend on the processing

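Counts here are proteasome members called in either direction, without the share of all tested genes in each setting. That share moves too. For the mean of the HIF2a guides it was 16.1% higher and 14.5% lower as reported, and 11.5% and 9.76% without HIF2a control library 1. A change in these counts therefore cannot be read as a change in the members alone. Whether the replicate numbers pair the libraries could not be checked, because a term for that number had been taken out of the deposited values. With the replicate number as a block, 34 members were called for the mean of the USP37 guides, 4 for that of the HIF2a guides and 0 for HIF2a sg6 against sg4.

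The HIF2a sg6 against sg4 count, 1 in the fit as reported, was also 0 with each experiment fitted alone, with no filter, with array weights and with no mean-variance trend, 2 with library medians centred or with chromosome medians taken out, and 3 with length and GC content taken out. For the mean of the HIF2a guides the count of 6 became 3 with each experiment fitted alone and 11 with array weights. For HIF2a sg4 it was 6, and 12 with array weights or 3 with chromosome medians taken out. For HIF2a sg6 it was 7, and 3 fitted alone, 4 with chromosome medians taken out and 4 without sg6 libraries 2 and 3 and control library 2. Those libraries were picked from these same values because they lay far from their groups.

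Leaving out 1 library at a time gave 3 to 9 members for the mean of the HIF2a guides, 3 to 7 for sg4, 2 to 10 for sg6 and 0 to 10 for sg6 against sg4, the highest without sg6 library 2. It gave 25 to 38 for the mean of the USP37 guides, 13 to 27 for sg3, 30 to 40 for sg9, 21 to 33 for sg9 against sg3, 18 to 35 for the USP37 against the HIF2a effect and 10 to 16 for the controls. The lowest counts for the USP37 guides against their controls, and for the effects, came without USP37 control library 2.

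Against the HIF2a controls, USP37 sg3 had 32 members called, in place of 21, with no share of all tested genes computed for that setting. PSMA3 then stood at 0.77 for both guides and 0.60 for sg3, and PSME1 at 0.46 for both guides, 0.67 for sg9 and 0.24 for sg3, opposite to their direction against the USP37 controls. For sg3, PSMB10 (-0.29) and PSMD1 (-0.27) also turned direction. PSMB8, which averaged 9.78 with sg3 and 9.81 in the HIF2a controls, was no longer called there. The cause of these changes was not tested. The number of libraries and a control of 2 limit the precision of every USP37 value.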
